A study of Mus musculus with 20 samples.

Results

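The 10 genes described here are imprinted growth genes and imprinted long non-coding RNAs (lncRNAs), measured in pancreatic islets of mice that lacked the mitofusins Mfn1, Mfn2 or both in β-cells. They were chosen by name as H19, Igf2, Meg3, Rian, Mirg, Dlk1, Peg3, Cdkn1c, Plagl1 and Nnat, because the H19 count varied strongly between libraries, and all 10 were found among the 28632 genes of the count table. The annotation lists 6 of them as protein coding and H19, Meg3, Mirg and Rian as non-coding. RNA was sequenced from islets of 12-week-old animals in 20 libraries. Ctrl animals contributed 6 libraries (3 female, 3 male). β-Mfn1KO animals, with loxP sites around exon 4 of Mfn1 and Ins1-Cre, contributed 4 (3 female, 1 male). β-Mfn2KO animals, with loxP sites around exon 6 of Mfn2 and Ins1-Cre, contributed 5 (2 female, 3 male), and β-Mfn1/2DKO animals, which carried both floxed genes and Ins1-Cre, contributed 5 (2 female, 3 male). The labels call the Ctrl animals wild type, whereas the study describes pooled littermates with Ins1-Cre alone or floxed alleles alone. Ins1-Cre acts in β-cells, and the islets also held α-, δ-, endothelial, mesenchymal and other cells with intact mitofusins.

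Imprinted genes are transcribed mainly from 1 parental copy, and many of them set fetal and placental growth. In the H19-Igf2 domain the maternal copy makes the lncRNA H19 and the paternal copy makes insulin-like growth factor 2. In the Dlk1-Dio3 domain the paternal copy makes the Notch-related membrane protein Dlk1, while the maternal copy makes Meg3, Rian and Mirg, lncRNAs read from the same strand that host clusters of small nucleolar RNAs and microRNAs. The counts summed both parental copies, so imprinting itself was not measured.

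The 3 maternal lncRNAs of the Dlk1-Dio3 domain, and H19, are microRNA hosts, and a few of their microRNAs are shown so that the hosts can be recognised by their products. The spans of H19 and Igf2 each held 2 mature microRNAs in the RefSeq table (GRCm38.p6), Meg3 held 3, Rian 6 and Mirg 26. The counts analysed were of the host genes, and mature microRNAs were not counted. Each sequence is written 5′ to 3′ with the seed, bases 2 to 8, in capitals. The first pair lies within H19 on the minus strand (chr7:142577112-142577133 and chr7:142577078-142577099), and the others lie on the plus strand of chromosome 12.
miR-675-5p (H19): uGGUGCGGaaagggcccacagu
miR-675-3p (H19): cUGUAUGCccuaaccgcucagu
miR-770-3p (Meg3, chr12:109563744-109563765): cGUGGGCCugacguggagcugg
miR-370-3p (Rian, chr12:109618305-109618326): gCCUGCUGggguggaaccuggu
miR-341-3p (Rian, chr12:109611556-109611576): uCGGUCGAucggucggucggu
miR-134-5p (Mirg, chr12:109734145-109734166): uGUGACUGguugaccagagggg
miR-410-3p (Mirg, chr12:109743764-109743784): aAUAUAACacagauggccugu
miR-453 (Mirg, chr12:109735669-109735692): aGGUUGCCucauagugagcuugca
miR-496a-5p (Mirg, chr12:109739132-109739152): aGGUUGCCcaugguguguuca
The last pair shared 1 seed, and each of the other microRNAs shown had a seed of its own among those hosted by the 10 genes.

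Promoter windows of 300 bases (250 before and 50 after the annotated start) were held in the RefSeq table for 8 of the 10 genes. H19 and Cdkn1c had no entry. The windows of Meg3 and Rian are shown because these lncRNAs moved together, and that of Peg3 because it held the same motif as Meg3. The searched motifs were the cAMP response element TGACGTCA (1.79% of 32851 promoter windows) and the E-box CACGTG (7.15%), on both strands, and neither contains the other. Capitals mark the cAMP response element, which began 57 bases before the start of Meg3 and 178 bases before that of Peg3.
Meg3 (GRCm38.p6, chr12:109540746-109541045, plus strand): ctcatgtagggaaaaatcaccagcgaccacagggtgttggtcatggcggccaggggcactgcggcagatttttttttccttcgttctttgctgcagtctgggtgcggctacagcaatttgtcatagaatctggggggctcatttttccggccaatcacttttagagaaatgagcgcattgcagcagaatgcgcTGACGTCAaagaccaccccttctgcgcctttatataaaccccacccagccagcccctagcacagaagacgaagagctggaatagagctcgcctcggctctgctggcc
Rian (GRCm38.p6, chr12:109603695-109603994, plus strand): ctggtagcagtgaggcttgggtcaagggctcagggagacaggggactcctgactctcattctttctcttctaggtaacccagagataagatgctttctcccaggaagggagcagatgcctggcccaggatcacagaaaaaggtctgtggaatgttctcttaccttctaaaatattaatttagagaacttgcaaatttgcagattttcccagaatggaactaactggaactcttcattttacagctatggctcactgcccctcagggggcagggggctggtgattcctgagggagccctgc
Peg3 (GRCm38.p6, chr7:6730370-6730669, minus strand): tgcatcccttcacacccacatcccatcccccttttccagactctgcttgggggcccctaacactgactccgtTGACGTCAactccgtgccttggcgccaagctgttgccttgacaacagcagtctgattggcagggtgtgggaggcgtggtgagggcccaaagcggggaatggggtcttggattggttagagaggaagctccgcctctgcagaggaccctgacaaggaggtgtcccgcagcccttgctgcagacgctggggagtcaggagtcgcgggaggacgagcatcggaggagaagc
The Meg3 window shown, the first of 2, held 13 CpG dinucleotides and the Rian window 0, against a median of 7 over all windows. Elsewhere, the Plagl1 window held an E-box. Neither motif was found in the windows of Dlk1, Rian, Mirg, Igf2 or Nnat. These matches describe letters in a window only.

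The libraries held 12400687 to 20329064 counts in Ctrl, 15745680 to 16685381 in β-Mfn1KO, 15110046 to 59533407 in β-Mfn2KO and 65533388 to 122947313 in β-Mfn1/2DKO, so depth and the double knockout cannot be told apart in the comparison with Ctrl. In CPM, the scaled share of a library's counts that fell on a gene, Mfn1 was at 35.1 to 42 in Ctrl, 14.3 to 17.5 in β-Mfn1KO and 17.8 to 26 in β-Mfn1/2DKO. Mfn2 was at 69.9 to 101 CPM in Ctrl, 34.7 to 41.5 in β-Mfn2KO and 52 to 55.8 in β-Mfn1/2DKO, in whole-gene counts that include exons outside the deletion. Summed β-cell markers (9 genes) were at 140000 to 219000 CPM in Ctrl and 65200 to 95700 in β-Mfn1/2DKO. Some libraries stood apart. The mesenchymal marker sum was 350 CPM in Ctrl 6 and 388 CPM in β-Mfn2KO 5, against 25 to 132 CPM in the other 18 libraries, and the immune marker sum was 79.5 and 95.3 CPM against 17.2 to 44.5. Xist, the RNA of the inactive X chromosome, was at 4.55 and 4.84 CPM in these same libraries, which are labelled male, and at most 0.484 CPM in the other males. Whether RNA from another sample was present in these 2 libraries was not tested. The acinar marker sum was 18200 and 44100 CPM in β-Mfn1/2DKO 4 and 5 and at most 6950 CPM elsewhere.

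Per length of exon, the members spanned a wide range of levels. On a TPM-like scale (counts divided by summed exon length, scaled to the same total in every library), Peg3, a zinc finger protein, had the highest mean level (277), followed by Meg3 (140.4) and Rian (87.3). Peg3 ranked 304 among 28561 genes with a length. The other members were much lower, with Nnat at 9.3, Mirg at 7.04, Dlk1 at 5.92, Plagl1 at 4.13, Cdkn1c at 3.75, Igf2 at 2.55 and H19 at 0.594. Within Ctrl the ranges of Peg3 (249.7 to 319) and Meg3 (115 to 205) did not overlap, and neither did those of Rian (77.3 to 108) and Meg3. The ranges of Nnat (4.94 to 20.7), Mirg (6.56 to 10.4) and Dlk1 (2.8 to 19.5) overlapped one another, as did those of Plagl1 (3.46 to 4.83), Cdkn1c (2.62 to 4.75) and Igf2 (1.89 to 6.39).

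Expression of H19 (ENSMUSG00000000031, chr7:142575529-142578143, minus strand, GRCm38) was close to all or none. In Ctrl the raw counts were 0, 0, 0, 0, 1 and 65. All 4 β-Mfn1KO libraries held 0 counts. In β-Mfn2KO the counts were 0, 0, 28, 0 and 257, and in β-Mfn1/2DKO they were 0, 9, 0, 2 and 1. Thus 3 libraries, Ctrl 6, β-Mfn2KO 3 and β-Mfn2KO 5, carried nearly all H19 reads, 4 libraries held 1 to 9 counts and 13 held none, and the 4 genotypes overlapped. As shares of each library, H19 was at 5.01 CPM in Ctrl 6 (exact binomial 95% interval 3.87 to 6.39), 1.85 CPM in β-Mfn2KO 3 (1.23 to 2.68) and 4.32 CPM in β-Mfn2KO 5 (3.81 to 4.88). These intervals cover counting error only. The interval of β-Mfn2KO 3 lay below those of the other 2, whereas the intervals of Ctrl 6 and β-Mfn2KO 5 overlapped. In β-Mfn1/2DKO 2 the 9 counts came to 0.107 CPM (0.049 to 0.203). A count of 0 allowed up to 0.18 to 0.191 CPM in the β-Mfn1KO libraries and 0.0244 and 0.0282 CPM in β-Mfn1/2DKO 1 and 3, taking 3 counts as the limit. H19 was chosen for this variation and was not tested.

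Both libraries with the highest H19 share were those with the highest mesenchymal marker sums, and β-Mfn2KO 3 had a mesenchymal sum of 95 CPM, within the range of the double knockout. Of the 11 mesenchymal markers, 5 were higher in Ctrl 6 and in β-Mfn2KO 5 than in all other libraries, and none was at 0 in them. Acta2, smooth muscle actin, was at 26.7 and 30.3 CPM there and at most 1.56 CPM elsewhere. Dio3, the deiodinase gene at the far end of the Dlk1-Dio3 domain, was at 0.848 and 1.83 CPM against at most 0.229 CPM. The part of mesenchymal or immune cells, or of RNA from another sample, in the H19 counts of Ctrl 6 and β-Mfn2KO 5 and in the Igf2 of Ctrl 6 was not tested, and in bulk islets more cells of a type and more RNA per cell cannot be told apart. All 3 libraries with over 9 counts came from males, and 4 of the 13 libraries with 0 counts did too. Over the 20 libraries, centred on the genotype mean, the genes averaging 100 or more normalized counts whose log2 CPM ranked most like H19 included Lcp1 (Spearman rho 0.884), Lyz2 (0.852), Vsir (0.83) and Unc93b1 (0.828). Lyz2 was at 18200 and 26330 normalized counts in Ctrl 6 and β-Mfn2KO 5. The 20 points share library, depth and cell makeup, and most H19 values are 0.

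**Figure D1:**
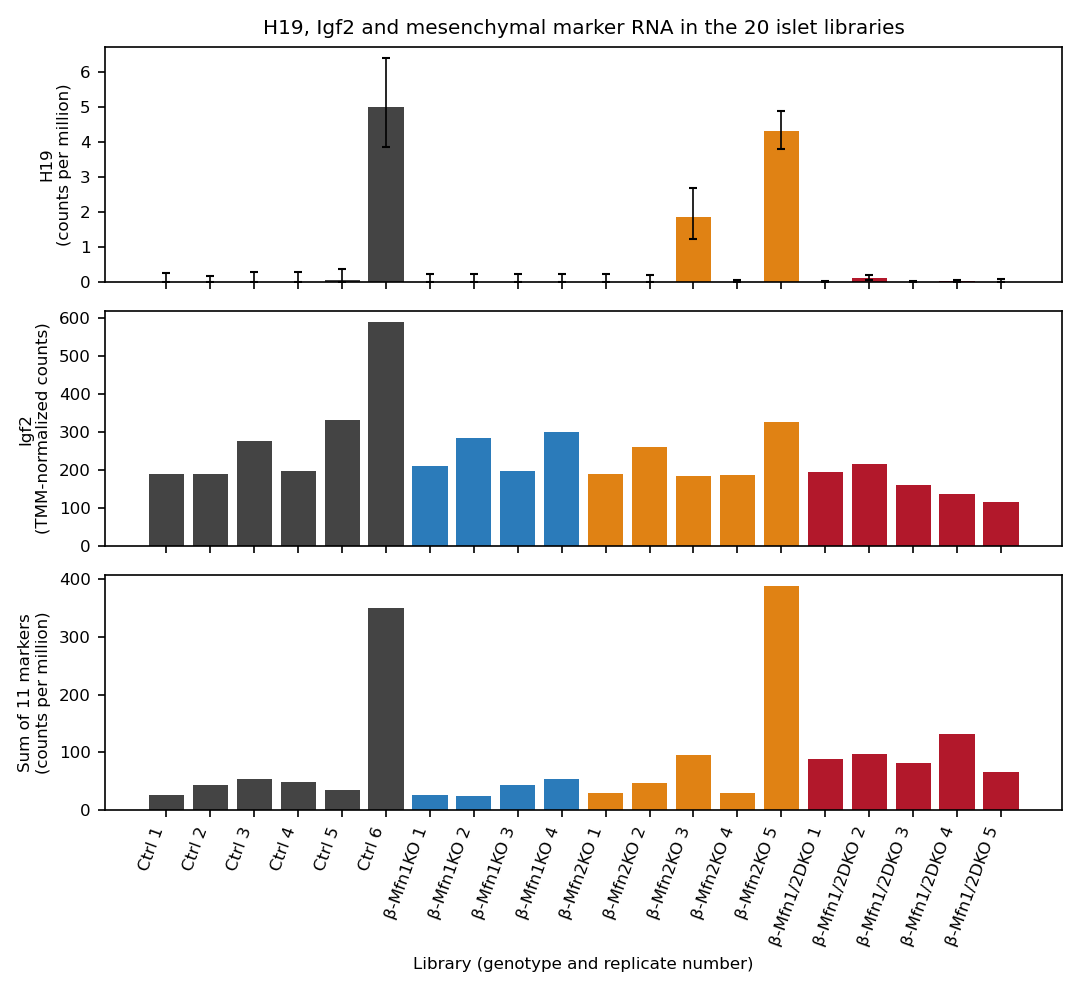
H19 in CPM with exact binomial 95% intervals (top), Igf2 in TMM-normalized counts (middle) and the sum of 11 mesenchymal markers in CPM (bottom) in each of the 20 libraries, coloured by genotype. H19 stands at 5.01, 1.85 and 4.32 CPM in Ctrl 6, β-Mfn2KO 3 and β-Mfn2KO 5 and near 0 in the rest, and Ctrl 6 also has the highest Igf2 (588).

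Next, the other 9 genes were compared between genotypes. Values below are TMM-normalized counts, scaled to a common library size, and a gene "passed" where its adjusted p was below 0.05 by the quasi-likelihood test of edgeR, with p-values adjusted by Benjamini-Hochberg over all 28632 genes. In β-Mfn1/2DKO against Ctrl, 6 of the 9 genes passed, all lower: Igf2, Meg3, Rian, Mirg, Plagl1 and Nnat. Over all genes 16.5% passed in this comparison, with 6.86% lower, and of the 12274 genes averaging 100 or more, to which the 9 belong, 33.6% passed, with 14% lower. Of the 6, Igf2, Rian, Mirg and Nnat were also over 1.5-fold lower, which 1.97% of all genes were with an adjusted p under 0.05. The median log2 difference of the 9 was -0.55, against 0.03 over genes with a mean of at least 100. In β-Mfn1/2DKO against β-Mfn2KO, 4 of the 9 passed, all lower (Meg3, Rian, Mirg, Plagl1), where 13% of all genes passed and 5.9% were lower. In the single knockouts against Ctrl, edgeR called 0 of the 9, as did DESeq2 and limma on the deposited normalized values, where 0.0279% (β-Mfn1KO) and 0.0559% (β-Mfn2KO) of all genes passed edgeR's test. At an unadjusted p under 0.05 there was 1 of the 9 in each, Dlk1, where 7.44% (β-Mfn1KO) and 4.22% (β-Mfn2KO) of all genes had such a p. The comparisons against Ctrl share the Ctrl libraries, and those of the double knockout share its libraries. Meg3, Rian and Mirg are neighbours in 1 domain and varied together within genotypes (Pearson r 0.825 to 0.888). They therefore do not count as independent genes in these shares or in the median.

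**Figure D2:**
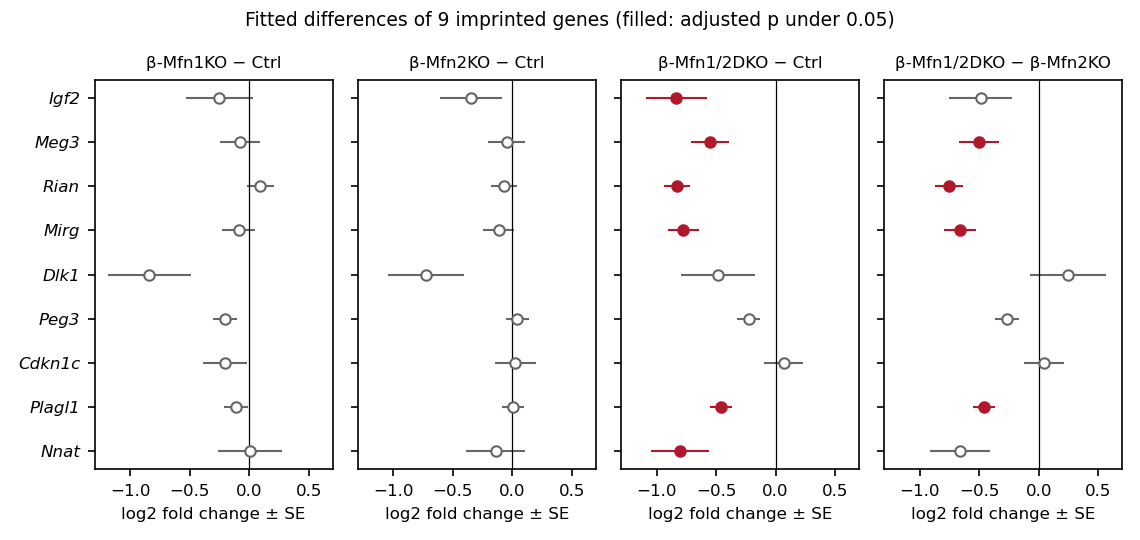
Fitted log2 fold changes with standard errors for 9 imprinted genes in 4 comparisons; filled red points passed at an adjusted p under 0.05. In both double-knockout comparisons the points of Meg3, Rian, Mirg and Plagl1 are filled and lie below 0, and no point is filled in the single knockouts.

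Among the growth factors, Igf2 (ENSMUSG00000048583, chr7:142650766-142666816, minus strand) is the ligand of the type 1 insulin-like growth factor receptor. Normalized counts of Igf2 ran from 189 through a median of 236.5 to 588 in Ctrl. They were 209, 283, 199 and 299 in β-Mfn1KO, 189, 261, 183, 187 and 327 in β-Mfn2KO, and 195, 216, 161, 136 and 117 in β-Mfn1/2DKO. The highest value was that of Ctrl 6, and the double knockout overlapped Ctrl, with 2 of its 5 libraries above the lowest Ctrl value. The log2 difference of β-Mfn1/2DKO from Ctrl was -0.84 ± 0.26 (SE; edgeR adjusted p = 0.026). It was -0.49 ± 0.26 from β-Mfn2KO (adjusted p = 0.25), -0.25 ± 0.28 for β-Mfn1KO from Ctrl (adjusted p = 0.82) and -0.35 ± 0.26 for β-Mfn2KO from Ctrl (adjusted p = 0.93). The call against Ctrl rested on several libraries. Without Ctrl 6 the difference was -0.52 (edgeR adjusted p = 0.095), and it was also lost without Ctrl 5 (0.0525) or β-Mfn1/2DKO 3, 4 or 5 (0.0549, 0.0747 and 0.0692). Of the 2 counted genes that overlap Igf2, the larger had 5.0% of its count. Across libraries centred on genotype, Igf2 and H19 had a Pearson r of 0.627 and a Spearman rho of 0.48 (n = 20), which is given as a description because H19 was chosen for its variation. Ranked most like Igf2 were Ndufa11 (rho 0.862), Hpse (0.842) and Acy1 (0.835).

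Cdkn1c (ENSMUSG00000037664, chr7:143458339-143461050, minus strand) encodes the cyclin-dependent kinase inhibitor p57 and lies on distal chromosome 7 beyond Igf2. It ranged from 93 to 156 normalized counts in Ctrl and from 110.5 to 187 in β-Mfn1/2DKO, and the groups overlapped. The log2 difference was 0.07 ± 0.16 (edgeR adjusted p = 0.82). Igf2 and Cdkn1c, centred on genotype, had a Pearson r of 0.249 (two-sided permutation p = 0.346, adjusted over 5 pairs 0.433; rho 0.277, p = 0.284, adjusted 0.355; n = 20), and -0.0769 without Ctrl 6 and β-Mfn2KO 5. Plagl1 (ENSMUSG00000019817, chr10:13060504-13131694, plus strand), a zinc finger transcription factor known for its link to transient neonatal diabetes, was more even between libraries. In Ctrl its values ran from 507 through 590.4 (median) to 605. They were 564, 531, 603 and 402 in β-Mfn1KO, 623, 579, 541, 603 and 502 in β-Mfn2KO, and 468, 362, 410.0, 413 and 412 in β-Mfn1/2DKO. All 5 double-knockout values lay below all Ctrl and all β-Mfn2KO values, and β-Mfn1KO 4 (402) lay within their range. The share of all genes separated in this way, here and below, was not computed. The log2 difference of β-Mfn1/2DKO was -0.46 ± 0.09 from Ctrl (edgeR adjusted p = 0.0012) and -0.46 ± 0.10 from β-Mfn2KO (adjusted p = 0.0019), both under 1.5-fold. Both calls held with each library left out in turn (adjusted p at most 0.00757 and 0.0104). With depth class (β-Mfn2KO 4 and 5 and all double-knockout libraries against the rest) as a covariate, an alternative added after seeing the data, the difference from Ctrl was -0.39 (adjusted p = 0.288). The difference from β-Mfn2KO was -0.43 with limma on the deposited values (limma adjusted p = 0.191). From β-Mfn2KO 4 and 5 alone it was -0.37 (edgeR adjusted p = 0.0999).

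Within the Dlk1-Dio3 domain, Rian (ENSMUSG00000097451, chr12:109603940-109661716, plus strand), the host of many C/D box small nucleolar RNAs, had the smallest adjusted p of the 9. Rian ran from 22682 through 29247 (median) to 34139 normalized counts in Ctrl. Its values were 31730, 32962, 32027 and 27865 in β-Mfn1KO, 31472, 28920, 20728, 30778 and 26911 in β-Mfn2KO, and 18291, 19341, 16202, 13642 and 14759 in β-Mfn1/2DKO. Every double-knockout library was below every library of the other 3 genotypes. The log2 difference of β-Mfn1/2DKO was -0.83 ± 0.11 from Ctrl (edgeR adjusted p = 1.5e-05) and -0.76 ± 0.12 from β-Mfn2KO (adjusted p = 9.5e-05). It was 0.09 ± 0.12 for β-Mfn1KO (adjusted p = 0.86) and -0.07 ± 0.11 for β-Mfn2KO (adjusted p = 0.98), each from Ctrl. Both calls held in every processing setting tried (35 against Ctrl and 36 against β-Mfn2KO, the reported one included), with log2 differences from Ctrl of -0.92 to -0.68.

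Mirg (ENSMUSG00000097391, chr12:109729764-109749460, plus strand), host of 26 of the listed microRNAs, was less abundant and was again lowest in the double knockout. Mirg ran from 788 through 961 (median) to 1209.5 normalized counts in Ctrl. Its values were 904, 932, 1018 and 779 in β-Mfn1KO, 954, 1036, 559.9, 983 and 920.0 in β-Mfn2KO, and 649, 619, 546, 496 and 513 in β-Mfn1/2DKO. The double knockout lay wholly below Ctrl, and β-Mfn2KO 3 was the only library outside it that reached its range. The log2 difference of β-Mfn1/2DKO was -0.78 ± 0.13 from Ctrl (edgeR adjusted p = 0.00019) and -0.66 ± 0.13 from β-Mfn2KO (adjusted p = 0.0016), and both passed in every setting tried. Meg3 (ENSMUSG00000021268, chr12:109541001-109571726, plus strand), whose RNA is known as a growth suppressor, varied more. Meg3 ran from 34923 through 44625 (median) to 59254 normalized counts in Ctrl. Its values were 41266, 47106, 52260 and 32474 in β-Mfn1KO, 53456, 45502, 29206, 48281 and 44369 in β-Mfn2KO, and 34706, 33261, 30921, 23148 and 33875 in β-Mfn1/2DKO. The highest double-knockout value was just below the lowest Ctrl value, and the double knockout overlapped both single knockouts. The log2 difference of β-Mfn1/2DKO was -0.55 ± 0.16 from Ctrl (edgeR adjusted p = 0.019) and -0.50 ± 0.17 from β-Mfn2KO (adjusted p = 0.048). The first was lost without Ctrl 1, Ctrl 3 or β-Mfn1/2DKO 4 (edgeR adjusted p = 0.0501, 0.0536 and 0.0803), and with single libraries left out the second ranged from 0.013 to 0.155. Over all settings tried, the reported one included, the first passed in 28 of 35 and the second in only 15 of 36.

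**Figure D3:**
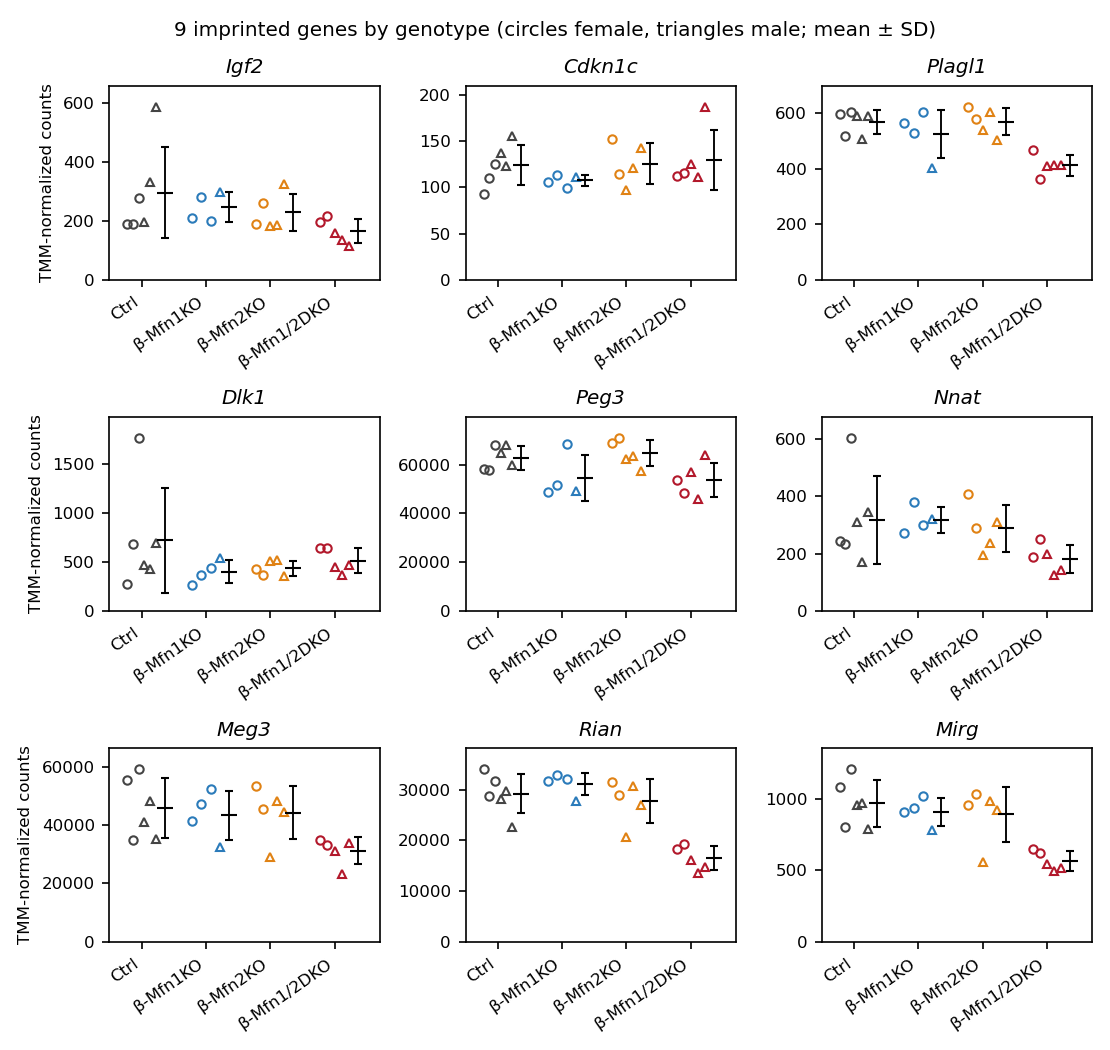
TMM-normalized counts of 9 imprinted genes in each library by genotype (circles female, triangles male), with the group mean and SD beside the points. The 5 β-Mfn1/2DKO points of Rian (13642 to 19341) lie below all others, and single Ctrl points lie far above their group in Igf2 (588), Dlk1 (1766) and Nnat (605).

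The 3 lncRNAs varied together within genotypes. After centring log2 CPM on the genotype mean over 20 libraries, the Pearson r was 0.825 for Meg3 and Rian (two-sided permutation p = 0.00012, adjusted over 5 pairs 0.0002; rho 0.821, p = 5e-05, adjusted 0.000125). For Meg3 and Mirg it was 0.888 (permutation p = 1e-05, the smallest that 100000 resamples can give, adjusted 5e-05; rho 0.835, p = 4e-05, adjusted 0.000125). For Rian and Mirg it was 0.865 (permutation p = 0.00011, adjusted 0.0002; rho 0.836, p = 9e-05, adjusted 0.00015). Leaving out the 2 libraries farthest from the median gave 0.718, 0.857 and 0.766 in that order, and within the 6 Ctrl libraries alone the values were 0.789, 0.973 and 0.78. Sex and depth were not centred out. For Dlk1, read from the other parental copy, the r with Meg3 was 0.0613 (permutation p = 0.843, adjusted 0.843; rho 0.101, p = 0.699, adjusted 0.699; n = 20) and -0.326 without Ctrl 3. The ratio of Rian to Meg3 counts was 0.534 to 0.825 in Ctrl, 0.613 to 0.858 in β-Mfn1KO, 0.589 to 0.71 in β-Mfn2KO and 0.436 to 0.589 in β-Mfn1/2DKO, and this difference was not tested. Ranked most like Meg3 were Gm48062 (rho 0.887), Leng8 (0.881) and Slc22a17 (0.874).

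**Figure D4:**
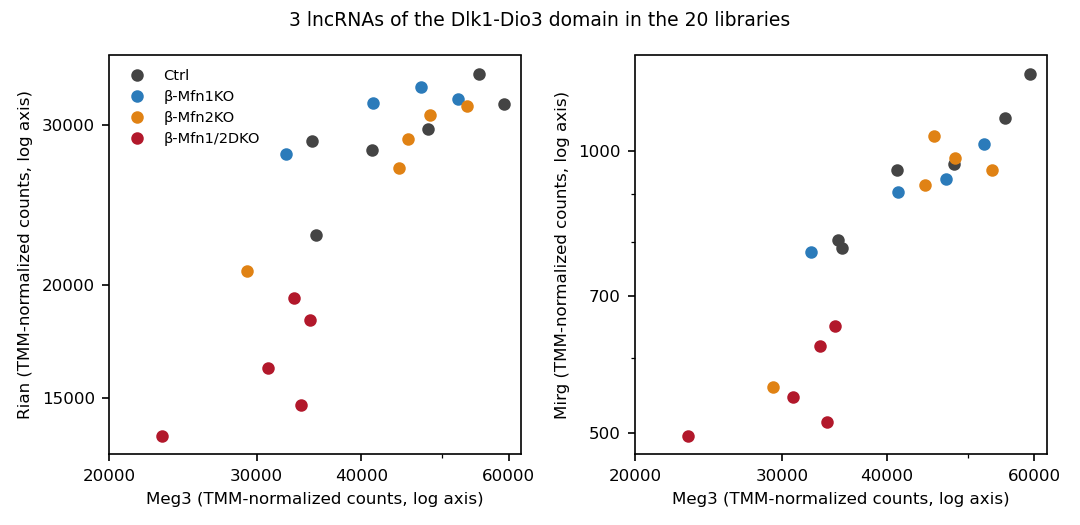
Rian (left) and Mirg (right) against Meg3 in TMM-normalized counts on log axes, with 1 point for each of the 20 libraries, coloured by genotype. Libraries with more Meg3 had more Rian and Mirg, and the β-Mfn1/2DKO points sit lowest for Rian, at 13642 to 19341. For Mirg they span 496 to 649, a range that β-Mfn2KO 3 (559.9) also reaches.

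Dlk1 (ENSMUSG00000040856, chr12:109452823-109463336, plus strand) had the largest pooled within-genotype spread of the tested members, and that spread was widest in Ctrl. Its SD was 75.0% of the mean in Ctrl, 29.1% in β-Mfn1KO, 18.0% in β-Mfn2KO and 24.7% in β-Mfn1/2DKO. In the last 2 genotypes Nnat, for one, varied more (28.1% and 27.1%). Normalized counts of Dlk1 ran from 276 through 574 (median) to 1766 in Ctrl, with the highest value in Ctrl 3. They were 265 to 541 in β-Mfn1KO, 353 to 517 in β-Mfn2KO and 360.2 to 646 in β-Mfn1/2DKO, and all genotypes overlapped. The log2 difference from Ctrl was -0.84 ± 0.35 for β-Mfn1KO (unadjusted p = 0.025, edgeR adjusted p = 0.63), -0.73 ± 0.32 for β-Mfn2KO (unadjusted p = 0.032, adjusted p = 0.93) and -0.48 ± 0.31 for β-Mfn1/2DKO (adjusted p = 0.34). With single libraries left out, the difference ranged from -1.02 to -0.347 for β-Mfn1KO and from -0.896 to -0.234 for β-Mfn2KO. Ranked most like Dlk1 were Cda (rho 0.815), Wdsub1 (0.812) and Rab37 (0.756). Elsewhere in the domain, Rtl1, a retrotransposon-derived gene, had a log2 difference of -0.53 ± 0.21 in β-Mfn1/2DKO from Ctrl (adjusted p = 0.088), and Dio3 of -1.12 ± 1.43 (adjusted p = 0.66) at a mean of 6.33 normalized counts.

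Peg3 (ENSMUSG00000002265, chr7:6703892-6730431, minus strand) was the most abundant member. Its normalized counts ran from 57785 to 68270 in Ctrl and from 45968 to 63786 in β-Mfn1/2DKO, with overlap. The log2 difference was -0.23 ± 0.10 from Ctrl (edgeR adjusted p = 0.12) and -0.27 ± 0.10 from β-Mfn2KO (adjusted p = 0.080). Without β-Mfn1/2DKO 5 both passed, at -0.30 (adjusted p = 0.0376) and -0.34 (adjusted p = 0.0261), and the second passed without β-Mfn1KO 3 (adjusted p = 0.0371). Its neighbours in the domain, Usp29 and Zim1, had log2 differences from Ctrl of -0.19 ± 0.08 (adjusted p = 0.10) and -0.01 ± 0.12 (adjusted p = 0.99). Nnat (ENSMUSG00000067786, chr2:157560078-157562522, plus strand), neuronatin, is a small membrane protein of the endoplasmic reticulum known to act in insulin secretion. Its normalized counts ran from 169 through 276 (median) to 605 in Ctrl. They were 271, 379, 300.5 and 322 in β-Mfn1KO, 409, 288, 197, 236 and 309.7 in β-Mfn2KO, and 188, 251, 197, 127 and 143 in β-Mfn1/2DKO. The groups overlapped, and the highest value came from Ctrl 3, the library with the highest Dlk1. The log2 difference of β-Mfn1/2DKO was -0.80 ± 0.25 from Ctrl (edgeR adjusted p = 0.027) and -0.66 ± 0.25 from β-Mfn2KO (adjusted p = 0.092). The first was lost without Ctrl 3 (adjusted p = 0.108), β-Mfn1/2DKO 4 (0.087) or β-Mfn1/2DKO 5 (0.0665), and the second passed without Ctrl 3 (0.0346). Nnat lies within the span of Blcap on the opposite strand. Whether counting used strand is not given in the sources used here, and the count of Blcap was 1124% of that of Nnat, so Nnat is uncertain. Blcap itself had a log2 difference of 0.02 ± 0.06 (adjusted p = 0.82).

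Several measured properties of the double-knockout libraries moved with these 6 lower genes. The α-cell marker sum was 34900 to 54700 CPM against 15000 to 49100 in Ctrl, and the mesenchymal sum 65.6 to 132 against 25.7 to 350, both with overlap. The ductal sum was 1070 to 1880 CPM against 767 to 988 and the endothelial sum 312 to 496 against 193 to 289, without overlap. The Schwann cell sum was 11.9 to 22.4 CPM against 9.55 to 11.9. The β-cell sum was lower, as given above. With β-Mfn1/2DKO 4 and 5 left out, the 2 libraries with the most acinar RNA, 3 of the 9 genes passed against Ctrl (Rian, Mirg and Plagl1), where 11.2% of all genes passed. The same 3 passed without β-Mfn1/2DKO 4 alone (13.4% of all genes). When depth class was a covariate, Rian and Mirg, 2 of the 9, passed, and calls over all genes fell from 16.5% to 2.54%. These 2 also passed in the deep libraries only, β-Mfn2KO 4 and 5 against the double knockout, where 6.3% of all genes passed. When the 2 mesenchymal-high libraries were left out, 5 of the 9 passed against Ctrl (17.9% of all genes), where Igf2 was at -0.52 (edgeR adjusted p = 0.0637), and 4 against β-Mfn2KO (13.3% of all genes). Those 4 included Peg3, which had not passed in the reported setting, but not Meg3 (edgeR adjusted p = 0.0545). The part of cell makeup in these differences was not tested.

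The scale also mattered. Scaling to total counts shifted the median log2 difference of all genes from 0.06 to 0.194 in β-Mfn1/2DKO against Ctrl, and 3 of the 9 passed (Rian, Mirg and Plagl1; 22.2% of all genes), with Meg3 at -0.41 (edgeR adjusted p = 0.065), Igf2 at -0.71 (0.063) and Nnat at -0.68 (0.061). On the per-length scale the median gene averaging 100 or more normalized counts was higher in the double knockout by 0.352 in log2. There Meg3 had medians of 134.9 in Ctrl and 132 in β-Mfn1/2DKO, whereas Rian had 90.5 and 68.6. Meg3 was thus lower relative to the median gene, and its per-length level itself moved little. Mirg had medians of 7.22 in Ctrl and 5.78 in β-Mfn1/2DKO, Nnat 8.57 and 7.68, Plagl1 4.31 and 3.84, and Igf2 2.5 and 2.17. For Peg3 (273 and 300), Cdkn1c (3.49 and 4.09) and Dlk1 (5.9 and 6.1) the double-knockout median was the higher.

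Sex was a comparison that did not enter the choice of genes. With genotype in the model, edgeR called 0 of the 9 genes between males and females (0.126% of all genes passed), and 4 had an unadjusted p under 0.05, as did 10.6% of all genes, all 4 lower in males. DESeq2 called 1, Rian, where it called 0.951% of all genes. Rian ran from 18291 through 31549 (median) to 34139 normalized counts in 10 females and from 13642 through 24796 to 30778 in 10 males, with a log2 difference, males minus females, of -0.25 ± 0.06 (edgeR unadjusted p = 0.00083, adjusted p = 0.16; DESeq2 adjusted p = 0.0159). The differences of Mirg (-0.25 ± 0.08), Meg3 (-0.30 ± 0.10) and Nnat (-0.37 ± 0.17) had edgeR adjusted p-values of 0.29, 0.30 and 0.43. Of the other imprinted genes, Peg10, a retrotransposon-derived placental gene, was lower in males by a log2 difference of -0.72 ± 0.11 (edgeR adjusted p = 0.0016).

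The members also differed in how much they varied inside a genotype. The within-genotype SD of log2 CPM had a median of 0.127 over genes averaging 100 or more normalized counts. It was 0.585 for Dlk1, above that of 97.7% of these genes, 0.46 for Igf2 (96.5%), 0.454 for Nnat (96.4%) and 0.303 for Meg3 (90.5%). Mirg (0.25, 85.1%), Cdkn1c (0.249, 85.0%) and Rian (0.201, 77.2%) followed, and Peg3 (0.162, 66.4%) and Plagl1 (0.156, 64.0%) varied least. For H19, whose mean was 22.8 normalized counts, the SD was 2.22. Counting error adds to the spread of genes with few counts, and its part was not separated. The spread of Dlk1 was widest in Ctrl, as given above.

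Other genes listed as imprinted moved in both directions, and whether they are imprinted in adult islets was not measured. A list of 65 other imprinted genes in the table had 9 higher and 7 lower in β-Mfn1/2DKO against Ctrl, 24.6% of the list against 16.5% of all genes, with a median log2 difference of 0.02. Of its 45 genes with a mean of at least 100, 16 passed, which is close to the 33.6% of all such genes. The tetraspanin Cd81 rose by 1.29 ± 0.08 in log2 (edgeR adjusted p = 6.4e-10), Tfpi2, a protease inhibitor, by 1.44 ± 0.22 (adjusted p = 9e-05), and the adaptor Grb10, which restrains insulin and IGF receptor signalling, by 0.61 ± 0.10 (adjusted p = 0.00025). The lipid transfer protein Osbpl5 rose by 0.59 ± 0.10 (adjusted p = 0.00017). Tssc4 differed by -0.53 ± 0.08 (adjusted p = 4.6e-05) and Ddc, the aromatic amino acid decarboxylase, by -0.58 ± 0.10 (adjusted p = 0.0002). On distal chromosome 7, the potassium channel Kcnq1 rose by 0.97 ± 0.33 (adjusted p = 0.046), and the lncRNA Kcnq1ot1 differed by -0.21 ± 0.22 (adjusted p = 0.60). Against β-Mfn2KO 7 were higher and 5 lower, where 13% of all genes passed. In the single knockouts 0 of the 65 passed by edgeR, and limma called 1 in β-Mfn2KO. An unadjusted p under 0.05 was held by 7 in β-Mfn1KO and 4 in β-Mfn2KO, where 7.44% and 4.22% of all genes had one. The count against Ctrl was 10 without Ctrl 4 (over all genes 2313 higher and 1689 lower), 10 without both acinar-high libraries (11.2% of all genes) and 2 with depth class as a covariate (2.54% of all genes).

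Of 22 genes of the IGF axis, which holds the receptors, binding proteins and adaptors through which Igf2 acts, 5 rose and 0 fell in β-Mfn1/2DKO against Ctrl (22.7%, where 9.59% of all genes were higher). All 5 were among the 14 genes of the axis with a mean of at least 100, and of all such genes 19.5% were higher. The secreted binding protein Igfbp5 rose by 1.23 ± 0.17 in log2 (edgeR adjusted p = 2.1e-05) and Grb10, which is on both lists, as given above. The insulin receptor Insr rose by 0.24 ± 0.07 (adjusted p = 0.016), its relative Insrr by 0.40 ± 0.12 (adjusted p = 0.023) and the RNA-binding protein Igf2bp2 by 0.36 ± 0.11 (adjusted p = 0.027). Igf2r, which clears Igf2 and is itself imprinted, differed by -0.04 ± 0.07 (adjusted p = 0.75). Igfbp4 was at 29 and 24.5 CPM in Ctrl 6 and β-Mfn2KO 5 and at most 7.03 CPM elsewhere, and Igf1 at 4.24 and 5.43 against at most 1.51 CPM. Of 18 genes that act on imprints, DNA methylation or chromatin, 3 rose and 3 fell (33.3%, where 16.5% of all genes passed). All 6 were among the 15 with a mean of at least 100, and of all such genes 33.6% passed. The demethylating enzyme Tet2 fell by 0.40 in log2 (edgeR adjusted p = 0.0017), the maintenance methyltransferase Dnmt1 fell by 0.23 (adjusted p = 0.015) and Zfp445, a zinc finger protein that protects imprints, fell by 0.18 (adjusted p = 0.037). The histone demethylase Kdm1b rose by 0.46 ± 0.11 (adjusted p = 0.0037), and the Polycomb subunits Ezh2 and Eed rose by 0.46 ± 0.13 and 0.18 ± 0.06 (adjusted p = 0.015 and 0.022). None of these 6 differences was over 1.5-fold.

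**Figure D5:**
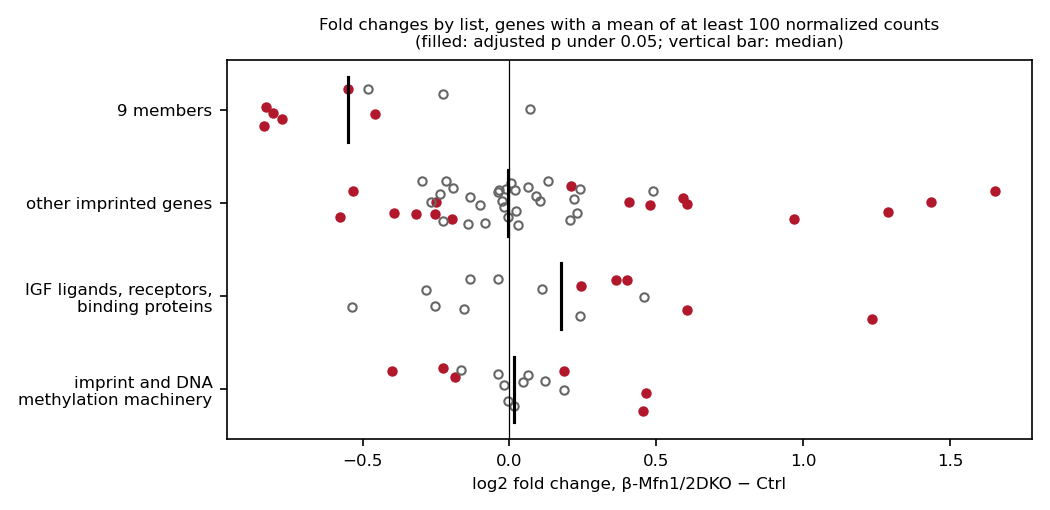
Log2 fold changes of β-Mfn1/2DKO against Ctrl for 9 members and 3 other lists, with 1 point for each gene averaging 100 or more normalized counts; filled points passed at an adjusted p under 0.05 and the bar is the median. The members have a median of -0.55, the other imprinted genes lie on both sides of 0 and the 5 filled IGF-axis points are all above 0.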

How the data were processed

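Islets were isolated with collagenase, cultured for 24 h and sequenced as paired-end reads on an Illumina NovaSeq. Per the submitters' processing notes the authors used cutadapt 2.3, FastQC 0.11.8, STAR 2.6.1b on GRCm38, RSEM 1.3.1 and DESeq2 1.26.0. The deposited main table holds estimated counts per gene, given by the authors as whole numbers. A deposited second table holds signal values, the authors' counts divided by gene-wise DESeq2 factors, and was used only for an alternative on log2(value + 1). The study names the Ensembl genome browser as the source of its genome. The strand setting is not given in the sources used here. Gene symbols, positions and exon lengths came from GENCODE M21, and 71 genes had no symbol there.

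The counts of 20 libraries were fitted with edgeR 4.0.16 (R 4.3.3; TMM, quasi-likelihood test, 4 genotype groups, no covariate, no filter on low counts), with Benjamini-Hochberg adjustment over 28632 genes. Sex was tested in a second fit with genotype. DESeq2 1.42.0 and limma 3.58.1 were alternatives. Named genes were the members, at most 6 passing genes per list and comparison, genes of a member's domain, and the genes ranked most like H19, Igf2, Meg3 and Dlk1. Of the genes ranked most like H19, 1 is not reported here. Acta2, Igf1, Igfbp4, Igf2r and Xist were named after their values were seen. Members and lists were chosen with earlier results of these data known, and the choice names only the variation of H19. Per-length levels were computed here from the counts. The labels do not say whether each library came from 1 animal, so p-values measure the spread between these samples. edgeR's prior degrees of freedom were 6.24. In counts simulated for 2 groups alone, with 1 dispersion for all genes, 200 genes above a minimum mean were changed 2-fold. The test called 193 of them in β-Mfn1/2DKO against Ctrl, with 12 others. The simulation did not use the spread of single members, so these rates are not theirs. Depths are given above.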

Additional observations from a re-analysis of the deposited data

Results flagged for a closer look

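Within-genotype values of the 9 genes other than H19 were screened for a library whose gap to its nearest neighbour exceeded Dixon's 95% critical value. Of 36 gene and genotype groups tested, 5 held such a library, and chance alone flags about 1 in 20 groups. Values are TMM-normalized counts. H19 was chosen for its variation and was not screened. Igf2 was high in Ctrl 6 (588), the library with high H19 and mesenchymal marker RNA. Dlk1 was high in Ctrl 3 (1766), where Nnat was also at its highest without being set apart by this criterion. Peg3 was high in β-Mfn1KO 3 (68340, against 48925 to 51478 in the other β-Mfn1KO libraries). Cdkn1c was high in β-Mfn1/2DKO 5 (187), the library with the most acinar RNA. Mirg was low in β-Mfn2KO 3 (559.9), where Meg3 and Rian also had their lowest β-Mfn2KO values.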

How the results depend on the processing

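No member's genotype difference that passed in the reported setting changed sign in any alternative. Differences that had not passed did so, among them Dlk1 (-0.65 to 0.0115) and Cdkn1c (-0.0958 to 0.145) in β-Mfn1/2DKO against Ctrl with single libraries left out, and so did 2 correlations given below. The count of members lower in β-Mfn1/2DKO against Ctrl (6) was 3 on total counts, 3 without β-Mfn1/2DKO 4 and 5 and 2 with depth class as a covariate, and leaving out single libraries gave 3 to 6. Against β-Mfn2KO (4) it was 2 in the deep libraries only and 3 to 5 with single libraries left out. Between sexes (0) it was 1 with DESeq2 and 1 with depth class. The count of other imprinted genes was 10 without the acinar-high libraries and 2 with depth class (main 16; 10 to 20 with single libraries left out), and against β-Mfn2KO (12) 20 with DESeq2 and 6 in the deep libraries (6.3% of all genes). In that DESeq2 fit 2431 of 28477 genes were higher and 2632 lower. The reported setting had 2030 and 1689 of 28632. The count of other imprinted genes was 1 for β-Mfn2KO against Ctrl with limma on the deposited values. For Igf2 and Cdkn1c the correlation (0.249) was 0.552 without the acinar-high and -0.131 without the mesenchymal-high libraries and ranged from -0.00468 to 0.555 without single libraries. For Dlk1 and Meg3 the range was -0.326 to 0.25.

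Over all genes, β-Mfn1/2DKO against Ctrl had 2745 higher and 1965 lower, 5393 and 949 on total counts, and 2291 and 2378 with DESeq2's size factors, where lower calls outnumbered higher ones. Replicate numbers are shared between genotypes, and 21 of 27 same-numbered pairs correlated above 0.1 after centring on genotype (lowest -0.102). Their mean r was 0.246, against 0.175 in other pairs of the same sex and -0.213 in other pairs of different sex. The labels name no pairs, so the reported fit took the libraries as independent, which these values do not establish. With the replicate block, 5 members passed against Ctrl (Igf2 at -0.49, adjusted p = 0.106) and 5 against β-Mfn2KO (Peg3 at -0.28, adjusted p = 0.039), the Igf2 and Cdkn1c correlation was -0.215, and calls over all genes were 2876 higher and 2074 lower. The depth-class, deep-library and mesenchymal alternatives were chosen after seeing the data. For H19, a count of 0 in the shallowest library allows 0.242 CPM.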
